A study of Triticum aestivum with 24 samples.

Results

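The comparison described here is that of wheat leaf sheaths that had met no Hessian fly larvae: uninfested Molly, a line that carries the resistance gene H13, against uninfested Newton, a susceptible line. It rests on 6 arrays, 3 of each line, chosen by their labels out of 24 arrays in the series; the others are 9 arrays of infested Molly and 9 of infested Newton, taken 6, 12 and 24 h after the eggs hatched. All arrays read total RNA from a short piece of the second leaf sheath, where the larvae feed, of seedlings grown in a chamber. The infested seedlings were infested at the stage with 2 leaves, and the uninfested sheaths are labelled as 12 h controls. The series labels give Molly's interaction with the larvae as incompatible and Newton's as compatible. The question the comparison asks is which probe sets differed in signal between the lines in sheaths without larvae.

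Hessian fly larvae settle between the leaf sheaths of wheat and feed on the sheath surface. Resistance genes of this kind are known to act once feeding has begun, by recognition of the attacker, so a resistant and a susceptible line may or may not differ in the genes that carry out defence before attack. Plants keep part of their defence in store as ready-made proteins, among them inhibitors of digestive enzymes, lectins, lipid transfer proteins of the cell surface and glucosidases that release toxins, and make the rest on demand. The lines may also differ in genes other than H13. Probe sets designed from one wheat genotype can bind the transcript of another less well. A difference of transcript level and a difference of sequence under the probes therefore cannot be told apart here. No sequences, genome positions or transcript descriptions were used, and most probe sets have no gene name in the annotation used here.

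The authors scaled every array to the same trimmed mean, so total signal does not show depth. Log2 signal of tested probe sets correlated at r = 0.967 to 0.971 among Molly arrays and 0.972 to 0.974 among Newton arrays, and at 0.956 to 0.966 between the lines. The 18S rRNA control read 3943 to 6773 units in Molly and 4832 to 8346 in Newton, and the lines overlapped in it and in each of 7 ratios of 3′ to 5′ signal (exact permutation p of at least 0.2, two-sided, where 0.1 is the smallest p that 3 against 3 arrays allow). Molly replicate 3 stood apart in 1 of these ratios, that of ef1a, at -4.27 on the log2 scale, against -1.85 and -0.98 on the other Molly arrays and -1.02, -1.57 and -1.09 on the Newton arrays; counts without this array are given below. Control probe sets for tags that match no wheat transcript reached 85.0 units over the series, and signals at or below that value are not told from background. The labels call the 18 infested arrays biological replicates and only number the uninfested ones. The p-values below use the spread within all 8 groups, so they rest mostly on the infested arrays, and the spread of the 6 uninfested ones may be technical.

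Of 36707 tested probe sets, 1247 (3.4%) differed at an adjusted p under 0.05 in a limma fit across the whole series, and these are the ones described as called, or as higher or lower. In Molly 503 (1.37%) were higher and 744 (2.03%) were lower. The directions differed in size: 64 were at least 2-fold higher in Molly and 370 at least 2-fold lower, 13 and 64 passed 4-fold, and 0 and 9 passed 8-fold. These folds include signals at background: the Molly mean was within the tag range for 120 of the lower probe sets, and the Newton mean for 27 of the higher ones. The median log2 difference was 0.51 among the higher probe sets and -0.99 among the lower ones, against 0.02 over all tested. On 1243 of the called probe sets no Molly array overlapped the Newton arrays, which 28.2% of all tested probe sets did too.

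**Figure D1:**
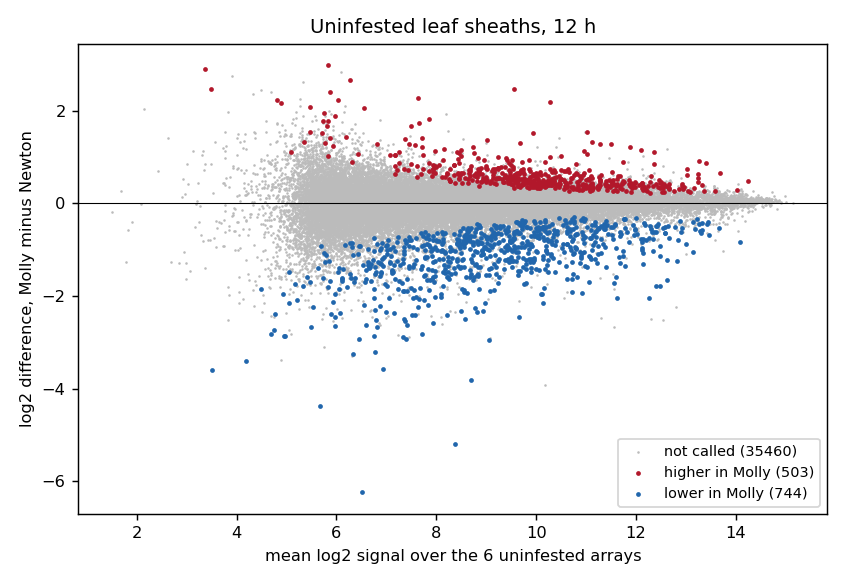
Difference between the lines without larvae for each tested probe set. The horizontal axis is the mean log2 signal over the 6 uninfested arrays and the vertical axis the log2 difference, Molly minus Newton; red points are the 503 probe sets higher in Molly, blue points the 744 lower, grey points those not called. The blue points reach further from 0 than the red ones, though for the lowest of them the Molly signal is within the tag range and the plotted size is not a measured fold.

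The balance of directions depended on scaling. With each array centred on its median log2 signal 628 probe sets were higher in Molly and 535 lower, so that the share of higher ones was 54%, against 40.3% with the authors' scaling. Called probe sets were more common among bright ones: in 4 classes of equal size by mean signal, 1.21% of the dimmest were called, then 2.32%, 4.63% and, in the brightest, 5.43%. In the brightest class 266 were higher in Molly and 232 lower, while in the dimmest 26 were higher and 85 lower. The interval of the difference (95%) lay within 2-fold either way for 74.0% of tested probe sets, so for these a larger difference of signal was outside the interval. The filter kept probe sets down to a mean signal of 44.8 units, below the tag maximum of 85.0. For such dim probe sets the interval does not bound a difference of transcript. The count of calls also depended on which arrays were fitted. It was 2693 with the 6 uninfested arrays alone, 1152 higher and 1541 lower in Molly. With all groups fitted and 1 array left out it was 705 without Molly replicate 2, 364 without Molly replicate 3, 513 without Newton replicate 1 and 340 without Newton replicate 2, and 881 and 867 without Molly replicate 1 and Newton replicate 3.

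Called probe sets of one transcript family mostly went the same way. Probe sets whose identifiers share a first number, which stands for one cluster of expressed sequences on this array, can be set side by side: 137 such clusters had more than 1 called probe set, and in 136 of them all called probe sets had the same direction, 36 higher and 100 lower in Molly. Since such probe sets can read the same RNA, they are not independent of each other. Probe sets of a cluster that were not called are left out of this count.

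Among genes with a telling name, the lipid transfer protein gene LTP3 was the clearest difference. Lipid transfer proteins carry lipids at the plant surface and some act against microbes. LTP3 read 4361, 4253 and 3701 units in uninfested Molly, against 10088, 9675 and 8965 units in uninfested Newton (probe set Ta.1282.1.S1_x_at). Every Molly array lay below every Newton array, and the log2 difference was -1.22 (SE 0.17, adjusted p = 0.00063), a level 2.34-fold lower in Molly. The dimmer LTP3 probe set had 241, 240 and 207 units in Molly and 256, 249 and 342 units in Newton and was not called (log2 difference -0.29, interval -0.90 to 0.32, adjusted p = 0.68).

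LOC100037539, whose probe sets belong to the same cluster as LTP3, followed it. It had 4341, 4005 and 2503 units in Molly, against 11906, 11252 and 10092 units in Newton (Ta.1282.2.S1_at). The groups did not overlap and the log2 difference was -1.65 (SE 0.28, adjusted p = 0.0028). Its other probe set, Ta.1282.2.S1_x_at, differed by -1.06 (adjusted p = 0.0045). An identifier ending in _x_at marks a probe set with probes that also match other transcripts, so LTP3 and LOC100037539 cannot be fully separated. LOC100037539 and the other genes with a LOC number below were chosen after their values were seen, as all those with a call of at least 2-fold, no overlap and a brighter line above the median signal; the tables used here do not say what they encode.

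GAPN, an enzyme that oxidises glyceraldehyde 3-phosphate and makes NADPH in the cytosol, was called, as 1 of 13 starch, fructan and sugar probe sets, where 3.4% of all tested were. It read 119, 85.1 and 64.0 units in Molly, against 213, 241 and 186 units in Newton. The log2 difference was -1.29 (SE 0.29, adjusted p = 0.016). Molly's signals were close to the highest tag control, so the size of the difference is uncertain, and the call was lost without Molly replicate 2 or 3 or Newton replicate 1 or 2 (log2 differences in all settings run from -1.52 to -1.07).

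Tubb4, a beta-tubulin of the microtubules, had the third called difference among genes with a telling name. It had 5862, 5418 and 4909 units in Molly, against 7761, 7817 and 7210 units in Newton. The difference was small and not overlapping, at -0.50 on the log2 scale (SE 0.10, adjusted p = 0.008), and it missed the threshold without Molly replicate 3 (-0.43). The bright alpha-tubulin probe set of TUBA differed by 0.02 (interval -0.13 to 0.18) and the beta-tubulin tubb2 by 0.18 (interval -0.07 to 0.42, adjusted p = 0.49).

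**Figure D2:**
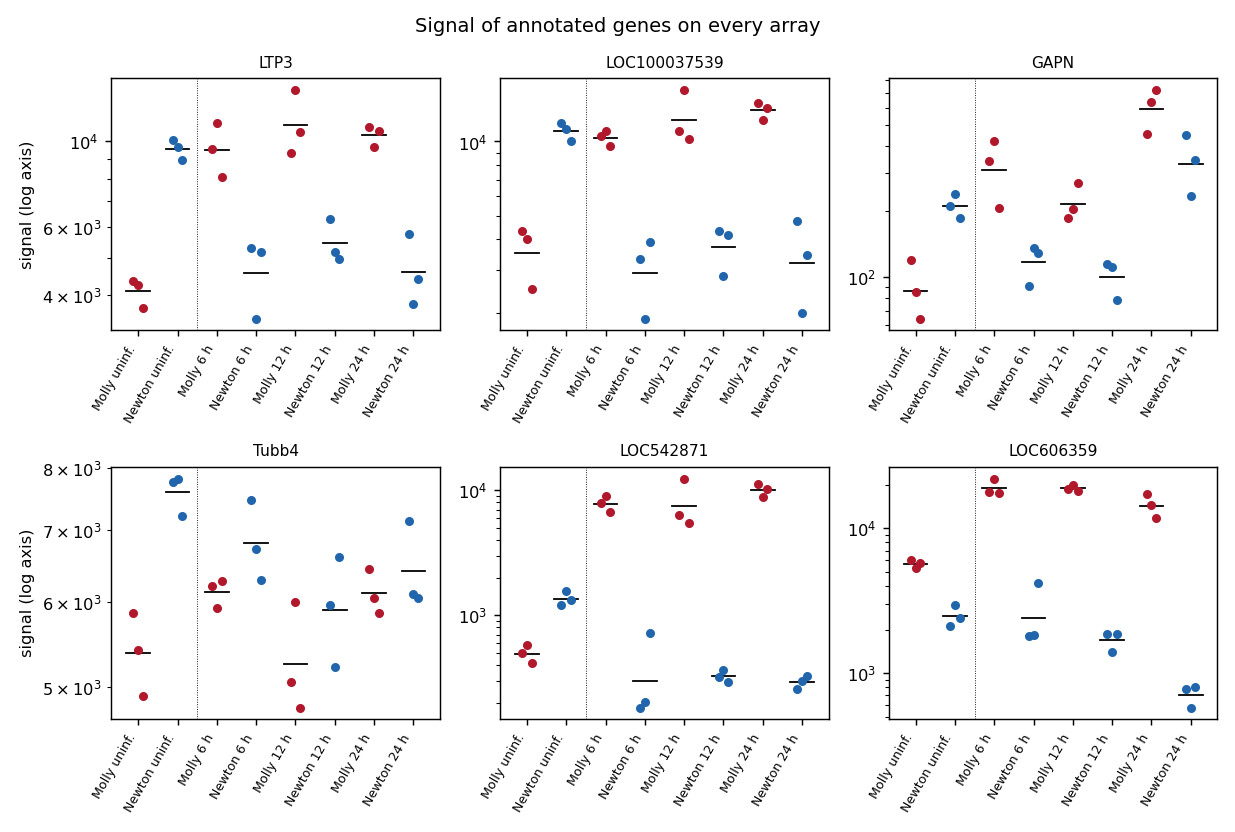
Signal of 6 annotated genes on every array (log axis), with 3 points for each group and a line at their geometric mean; Molly is red, Newton blue, and the dotted line parts uninfested from infested sheaths. LTP3, LOC100037539, GAPN, Tubb4 and LOC542871 are lower in uninfested Molly and LOC606359 is higher, and in infested sheaths LTP3, LOC100037539, LOC542871 and LOC606359 are higher in Molly on every array.

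The other LOC genes that were at least 2-fold lower in uninfested Molly came to 11. LOC543498 differed most among them, with 193, 206 and 105 units in Molly and 981, 748 and 710 units in Newton (log2 difference -2.32, SE 0.52, adjusted p = 0.017). LOC542871 had 496, 576 and 418 units in Molly and 1205, 1555 and 1330 units in Newton (-1.46, SE 0.35, adjusted p = 0.024). LOC543145 had 1598, 1179 and 1077 units in Molly and 3047, 3441 and 3251 units in Newton (-1.36, SE 0.34, adjusted p = 0.029). In each of these genes the highest Molly array was below the lowest Newton array. The others had log2 differences of -1.60 (LOC100125701), -1.43 (LOC778395), -1.27 (LOC542806), -1.22 (LOC543147), -1.22 (LOC100037578), -1.19 (LOC606352), -1.05 (LOC543420) and -1.03 (LOC543216). Calls in this set were easily lost: LOC100125701 missed the threshold in 8 of 15 alternative settings, and each of the others in 2 to 6, mostly settings that leave out 1 array.

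LOC genes at least 2-fold higher in uninfested Molly were 3. LOC606359 had 6036, 5352 and 5767 units in Molly, against 2110, 2955 and 2391 units in Newton (Ta.7388.2.S1_a_at, log2 difference 1.21, SE 0.23, adjusted p = 0.0065). Its 3 probe sets gave 1.21, 1.28 and 1.31, and no Newton array reached a Molly array in any of them. LOC100037538 had 3712, 3640 and 3303 units in Molly and 1065, 1079 and 1588 units in Newton (1.54, SE 0.22, adjusted p = 0.0007). LOC543018 had 1887, 1888 and 2464 units in Molly and 866, 1100 and 1079 units in Newton (1.03, SE 0.13, adjusted p = 0.00029). Of 965 tested probe sets paired with any gene, 49 (5.08%, against 3.4% of all tested) were called, 19 higher and 30 lower in Molly, from 41 genes.

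The largest differences toward Newton lay in probe sets without a gene name. Ta.6210.1.S1_at read 56.3, 64.0 and 45.4 units in Molly, all within the range of the tag controls, against 2367, 2544 and 1307 units in Newton, so it was at least 23.4-fold lower in Molly (adjusted p = 1.2e-05). Ta.12786.1.A1_at read 11.2, 7.73 and 13.3 units in Molly, against 679, 1275 and 571 units in Newton, at least 9.3-fold lower in Molly (adjusted p = 0.0013). These were the only 2 of 61179 wheat probe sets that were within the tag range on every array of one line and at least 4 times above it on every array of the other; none was bright in Molly alone. For such a bound the ratio is that of the Newton geometric mean to the highest tag control signal.

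Other large differences were chosen after their values were seen, from among those with the same direction at all infested times. TaAffx.131916.5.S1_at had 164, 70.8 and 118 units in Molly and 1968, 1319 and 1434 units in Newton (log2 difference -3.80, SE 0.44, adjusted p = 0.00013). Ta.15881.1.S1_at had 39.3, 22.1 and 54.2 units in Molly and 376, 437 and 228 units in Newton, at least 3.93-fold lower in Molly. In both, the brightest Molly array stayed below the dimmest Newton array. In the other direction, by the rule for unnamed probe sets, Ta.28847.1.S1_a_at had 1703, 1819 and 1775 units in Molly, against 353, 277 and 336 units in Newton (2.46, SE 0.57, adjusted p = 0.02). Its call was lost whichever of the 6 arrays was left out, with log2 differences of 2.36 to 2.53 over all settings. The infested Newton arrays, whose spread enters the SE, read 3.47 to 60.3 units, all within the tag range. The part of that spread in the lost calls was not tested. Ta.28550.1.S1_at had 2497, 2899 and 2587 units in Molly and 577, 556 and 608 units in Newton (2.20, SE 0.30, adjusted p = 0.00054) and kept its call in all 15 settings.

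**Figure D3:**
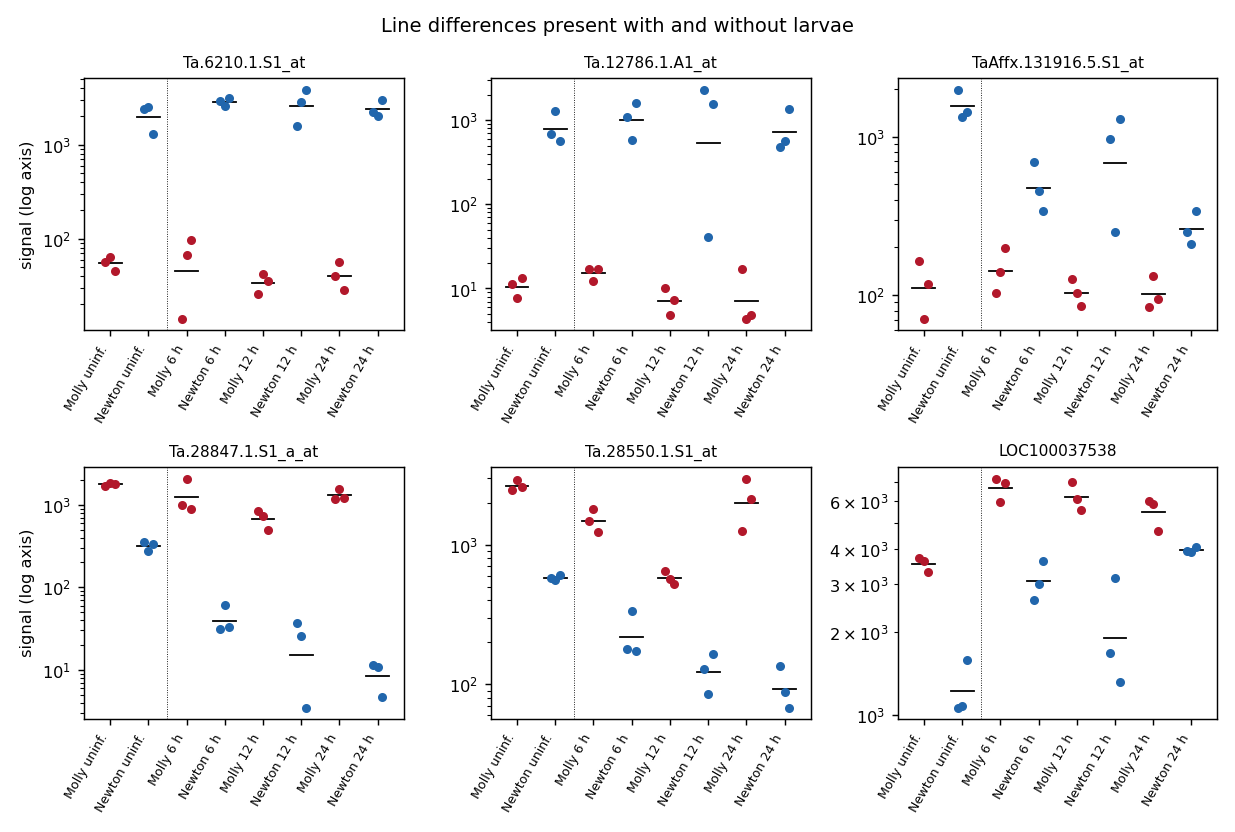
Signal of 6 probe sets on every array (log axis), with 3 points for each group and a line at their geometric mean; Molly is red, Newton blue, and the dotted line parts uninfested from infested sheaths. The first 3 are lower in Molly and the last 3 higher in Molly in uninfested sheaths and in the mean of the infested ones.

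Arrays of infested sheaths show whether a difference of the lines was there with larvae as well. Their values do not enter the uninfested log2 difference. They do enter the signal filter and most of the spread behind its p-values, so they had a part in which probe sets were called. Ta.6210.1.S1_at read 14.0 to 97.4 units (median 40.4) on 9 infested Molly arrays, against 1593 to 3823 units (median 2816) on 9 infested Newton arrays. Ta.12786.1.A1_at had a median of 10.0 units in infested Molly and read 41.3 to 2290 units (median 1103) in infested Newton. For both, the lines were apart on all 18 arrays, though the lowest Newton array of the second is within the tag range. TaAffx.131916.5.S1_at and Ta.28550.1.S1_at were chosen by their direction in infested sheaths, so their infested values are no test of it. Of 1247 probe sets called without larvae, 142 were called in the same direction at 6, 12 and 24 h, 44 of them higher in Molly (8.75% of the higher ones, where 5.97% of all tested were higher at all 3 times) and 98 lower (13.2%, where 5.19% of all tested were lower).

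A larger number turned round. LTP3 was lower in uninfested Molly, but read 8068 to 13587 units (median 10574) in infested Molly and 3469 to 6293 units (median 5162) in infested Newton, with no overlap (mean log2 difference over the times 1.09, adjusted p = 1.2e-08). LOC100037539 read 9556 to 16211 units in infested Molly and 1898 to 4763 units in infested Newton. LOC542871 read 5446 to 12381 units (median 8790) in infested Molly, against 183 to 725 units (median 297) in infested Newton, a mean log2 difference of 4.78 where that without larvae was -1.46. For GAPN it was 1.12 (adjusted p = 9.8e-06), with arrays of the lines overlapping. The uninfested and infested differences of LTP3 differed from each other by -2.31 (adjusted p = 7.7e-08). This test of the change was passed by 27.8% of all tested probe sets and 73.1% of those called without larvae. It uses the uninfested values that chose LTP3 and the other called probe sets, so it is not independent of that choice. LOC606359 kept its direction, with 11863 to 22090 units in infested Molly and 576 to 4201 units in infested Newton. In all, 215 of the 1247 were called in the opposite direction at all 3 times, 167 of them lower in uninfested Molly (22.4%, against 5.97% of all tested that were higher in infested Molly at all 3 times) and 48 higher (9.54%, against 5.19% that were lower).

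**Figure D4:**
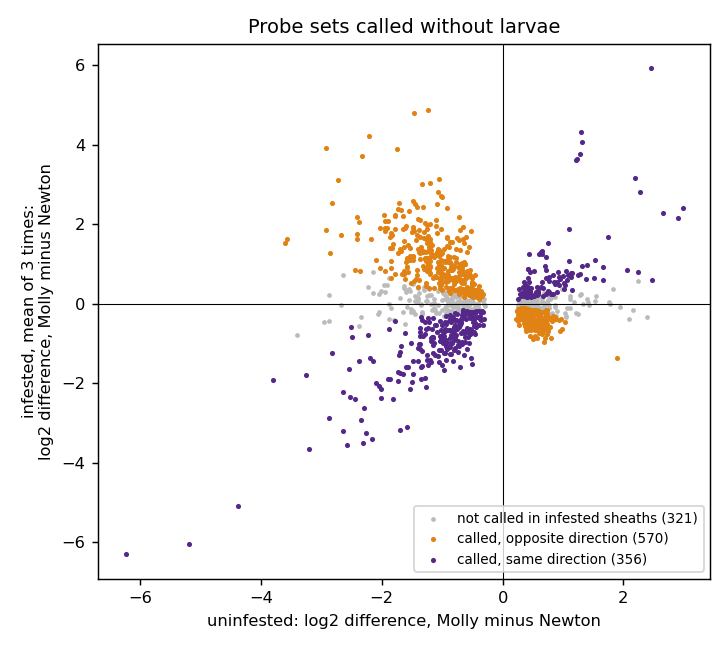
The 1247 probe sets called without larvae: their log2 difference, Molly minus Newton, in uninfested sheaths (horizontal) and in infested sheaths as the mean of 3 times (vertical). Purple points (356) were called in the same direction in infested sheaths, orange points (570) in the opposite one and grey points (321) were not called there; the 2 furthest to the left, Ta.12786.1.A1_at and Ta.6210.1.S1_at, are purple.

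Over the 744 probe sets that were lower in uninfested Molly, 339 (45.6%) were higher in infested Molly in the mean over the times and 240 (32.3%) lower, against 19.0% and 27.5% of all tested probe sets. Of the 503 that were higher in uninfested Molly, 116 (23.1%) were higher and 231 (45.9%) lower in infested Molly. At 12 h, the time of the uninfested sheaths, 38.7% and 18.1% of the 744 were higher and lower in infested Molly, and 14.3% and 43.7% of the 503, against 13.3% and 17.5% of all tested. How many turned round depended on which arrays chose the probe sets. Without Newton replicate 2, 77 of 209 lower probe sets (36.8%) were higher in infested Molly in the mean over the times and 90 (43.1%) lower, and without Molly replicate 3, 90 of 250 (36%) were higher and 105 (42%) lower. Of those higher in uninfested Molly, 56 of 131 (42.7%) were higher and 38 (29%) lower without Newton replicate 2, and 44 of 114 (38.6%) and 37 (32.5%) without Molly replicate 3. So without either of these arrays more of the called probe sets kept their direction than turned round, though LTP3, both probe sets of LOC100037539 and 2 of 3 of LOC606359 kept their call in uninfested sheaths in all 15 settings.

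Of 130 tested probe sets from 75 genes with a telling name, 0 were higher and 3 lower in Molly, where 3.4% of all tested were called. Of the 130, 15 had an unadjusted p under 0.05 (17.7% of all tested did), and 96 had an interval within 2-fold. Their median log2 difference was 0.02, that of all tested. The gene groups below were written with earlier results of these data known. They hold at most 20 tested probe sets each, and at the share of 3.4% such a group could hold no call, so the lack of one is not a result about the group.

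Inhibitors of digestive and cell wall enzymes act against the enzymes of insects and microbes. Of their 5 tested probe sets, from 4 genes, 0 were called. Their median log2 difference of -0.64 was the value of WMAI-1, which averaged 40.6 units in Molly and 63.4 in Newton, within the tag range. The ATI probe set averaged 76.1 units in Molly and 78.3 in Newton, also within it, so the median is no measure of the group. XIP-I, an inhibitor of microbial xylanases, read 385, 382 and 285 units in Molly, against 730, 1409 and 743 units in Newton. All Molly arrays were below all Newton arrays, and Newton replicate 2 was far above the others. The difference missed the threshold (-1.40, interval -2.36 to -0.43, adjusted p = 0.1), and it did so without Newton replicate 2 as well. It passed in 1 of 15 alternative settings, the fit of only the 6 uninfested arrays (adjusted p = 0.012). In infested sheaths XIP-I read 1682 to 10921 units in Molly and 555 to 2569 units in Newton. The inhibitor wci, with a log2 difference of 0.36 (interval -0.35 to 1.07), had signals near the tag range. Of 8 defence probe sets for thionins, PR5 and wheat germ agglutinin, 7 were within the tag range on all 6 arrays and 1, of WGA2, was tested. WGA2, a lectin that binds chitin, spread from 79.7 to 574 units in Molly and from 87.9 to 434 units in Newton (0.01, interval -1.62 to 1.64).

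TaGlu1a, a beta-glucosidase that frees stored benzoxazinoid toxins, read 27603, 25744 and 23860 units in Molly and 25717, 22218 and 24879 units in Newton, and the lines overlapped (0.08, interval -0.09 to 0.26). XTH, which remodels xyloglucan, differed by 0.01 (interval -0.39 to 0.41). Among 13 redox and detoxification probe sets 0 were called, with a median of -0.21. The peroxidase TaPrx1 had 8916, 8402 and 7727 units in Molly and 8568, 7772 and 8566 units in Newton (0.01, interval -0.32 to 0.34). The glutathione transferase GSTZ1 had 173, 151 and 169 units in Molly and 210, 303 and 188 units in Newton in its brightest probe set (-0.48, interval -1.03 to 0.08, adjusted p = 0.38).

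Of 5 methyl transfer probe sets 0 were called. SAHH, which recycles the methyl cycle's by-product, differed by 0.04 (interval -0.09 to 0.17). COMT1, a methyltransferase of lignin precursors, had 14461, 14443 and 14345 units in Molly and 16806, 16684 and 16520 units in Newton. These arrays did not overlap, and the difference of -0.21 (interval -0.39 to -0.03) was not called (adjusted p = 0.21). Similarly, FKBP70, a peptidyl-prolyl isomerase that assists protein folding, had 9274, 8920 and 9236 units in Molly and 6673, 6481 and 6958 units in Newton. It was apart on all arrays, at 0.45 (interval 0.15 to 0.74), and missed the threshold in the fit over all arrays (adjusted p = 0.085), but passed in the fit of the 6 uninfested arrays alone (adjusted p = 0.0031). In that fit, where the spread of the infested groups plays no part, COMT1 passed as well (adjusted p = 0.028).

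Of 18 tested photosynthesis probe sets, which mark green tissue, 0 were called. The 12 of rbcL had a median of 0.06, and several of them were near the tag range. The 6 of other genes (FBP, PRK, PsbO, PsbP and petC) all had values below 0, with a median of -0.27; petC, of the cytochrome complex between the photosystems, was at -0.30 (interval -0.56 to -0.04, adjusted p = 0.2). The summed signal of all 36 photosynthesis probe sets on the array was 110111 to 119606 units in Molly and 119215 to 126615 units in Newton. The Rubisco large subunit rbcL, in its brightest probe set, read 37840, 35820 and 36027 units in Molly and 37267, 35494 and 36118 units in Newton, so the sheaths of both lines carried this chloroplast transcript. PRK of the Calvin cycle had 4989, 5291 and 4278 units in Molly and 5910, 6644 and 5624 units in Newton (-0.32, interval -0.70 to 0.06, adjusted p = 0.39). Of 20 histone and chromatin probe sets, which mark dividing cells, 0 were called, and 19 had intervals within 2-fold; their median was 0.14 and 13 did not overlap between the lines, where 28.2% of all tested probe sets did not. These 20 probe sets come from 6 genes, and those of one gene can read the same RNA, so they are not independent of each other. An unadjusted p under 0.05 was reached by 0 of them, against 17.7% of all tested probe sets. Their summed signal was 279880 to 287517 units in Molly and 241495 to 272110 units in Newton. The brightest, of wcH2A-9, differed by 0.11 (interval -0.23 to 0.44). Genes of seed storage and anthers, markers of other organs, were within the tag range on all 6 arrays in 17 of 21 probe sets; the avenin-like ALP was not, at 4342, 4770 and 4453 units in Molly and 4594, 4431 and 4650 units in Newton. In such samples of whole tissue, fewer cells of a type and less RNA per cell cannot be told apart.

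AGP-S, a subunit of the enzyme that commits glucose to starch, differed by 0.07 (interval -0.07 to 0.22). BMY1, a beta-amylase that breaks starch down, had 646, 438 and 378 units in Molly and 755, 722 and 743 units in Newton (-0.64, interval -1.09 to -0.18, adjusted p = 0.11), and among the settings tried it passed only without Molly replicate 1 (adjusted p = 0.046). All 10 translation probe sets had intervals within 2-fold and 0 were called, among them TEF1 at 0.09 (interval -0.06 to 0.24). However, 1 of the 10, the dimmer RPS29 probe set, was within the tag range on all 6 arrays, so its interval does not bound a difference of transcript. All 4 tested transport probe sets had intervals within 2-fold and 0 were called, led by the proton pump gene ha1 at -0.10 (interval -0.35 to 0.15). The TATA-binding protein gene TBP1 differed by 0.01 (interval -0.22 to 0.23), APRT of purine salvage by 0.04 (interval -0.08 to 0.16). Gibberellin 20-oxidases, which make the growth hormone gibberellin, were too dim to compare, with 3 of 4 probe sets within the tag range on all 6 arrays; GA20ox1b had 26.0, 81.5 and 62.9 units in Molly and 47.1, 30.3 and 42.8 units in Newton. The dehydrin Rab15, a protein of water stress, had 113, 145 and 155 units in Molly and 86.1, 79.4 and 89.4 units in Newton in one probe set (0.68, interval -0.15 to 1.52) and differed by 0.08 in its brighter one (interval -0.88 to 1.04). WZF1, a zinc-finger gene, had 119, 161 and 89.3 units in Molly and 204, 137 and 162 units in Newton (-0.47, interval -1.28 to 0.34, adjusted p = 0.6).

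**Figure D5:**
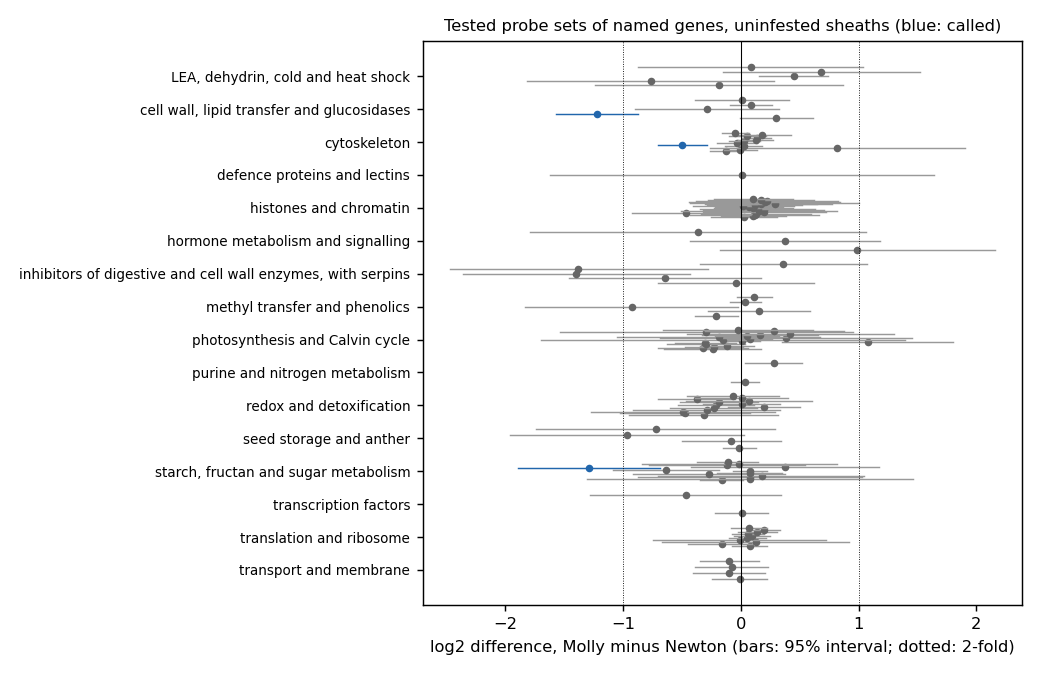
Log2 difference, Molly minus Newton, of the tested probe sets of named genes in uninfested sheaths, by gene group, with 95% intervals as bars; dotted lines mark 2-fold and blue marks the called ones. The 3 blue probe sets are LTP3, Tubb4 and GAPN, all left of 0.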

How the data were processed

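The values used are the authors' deposited signal, an intensity for each probe set on a linear scale. Per the submitters' processing notes it comes from MAS5, with its version not given in the sources used. Each array had the same trimmed mean (500 units, percentiles 2 to 98), and this scaling was kept. The table holds 61290 probe sets. After 111 controls were removed, the dimmest 40% by mean log2 signal across the 24 arrays were dropped (limit 44.8 units), leaving 36707. limma 3.58.1 (R 4.3.3) was run on log2 signal with a mean per group (8 groups) and an intensity trend in the prior, giving 16 residual degrees of freedom and 4.49 from the prior. P-values are two-sided and were adjusted by Benjamini and Hochberg's method across the tested probe sets, with calls made under 0.05. The annotation paired 1273 probe sets with 1 gene, none with several and 59906 with none. Of 771 genes, 98 had a telling name.

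The members and lists were chosen with earlier results of these data known. The rule for names took up to 10 called genes in each direction by size, with no overlap and the brighter line above the median tested signal (308 units); each list added up to 2 called probe sets and its brightest not called, and up to 2 unnamed probe sets were taken in each direction. Only 2 genes with a telling name met the first part, LTP3 and Tubb4. Replicate numbers did not pair the arrays: deviations of same-numbered arrays correlated at -0.04, 0.046 and -0.022. Alternatives were other filters, normalizations, offsets and variance priors, the 6 arrays alone, a replicate block and each uninfested array left out. The number of arrays limits the precision. No sequences or positions were used.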

Additional observations from a re-analysis of the deposited data

Results flagged for a closer look

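For each of the following probe sets the difference of the lines without larvae was set against its mean with larvae, and the change between them passed the threshold (uninfested minus infested log2 difference, adjusted over all tested probe sets, of which 27.8% passed). The members were called without larvae, so the change is measured partly with the values that chose them, and 73.1% of all 1247 such probe sets passed. For LTP3 it was -2.31, for LOC100037539 -3.52 and -2.35 in 2 probe sets, for GAPN -2.42 and for Tubb4 -0.37. The largest changes were -6.24 for LOC542871 and -6.02 for LOC543498, followed by -4.21 for LOC606352 and -4.18 for LOC543420. In infested Newton LOC543498 read 5.54 to 94.3 units (median 21.5) and LOC606352 read 42.5 to 120 units (median 81.8). Both medians are within the tag range, so the sizes of these changes in LOC543498 and LOC606352 are uncertain. LOC100125701 changed by -3.54, LOC543145 by -2.70, LOC543147 by -2.64, LOC542806 by -2.56, LOC778395 by -2.05, LOC543216 by -1.49 and LOC100037578 by -1.44; these genes were lower in uninfested Molly. Among those higher in uninfested Molly, the 3 probe sets of LOC606359 changed by -2.76, -2.39 and -2.48 and Ta.28847.1.S1_a_at by -3.46, each with the larger line difference in infested sheaths. LOC543018 changed by 0.57, with the smaller one in infested sheaths. Ta.28847.1.S1_a_at read 3.47 to 60.3 units in infested Newton, all within the tag range, so the size of its change is uncertain.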

How the results depend on the processing

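Of 1247 calls, 893 were shared with the fit under a constant variance prior, and 937 to 1229 with the other filters, normalizations and offset, the replicate block and the 6 arrays alone. Without 1 array, 319 (Newton replicate 2), 346 (Molly replicate 3), 489 (Newton replicate 1), 637 (Molly replicate 2), 761 (Newton replicate 3) and 763 (Molly replicate 1) were shared. Shared calls kept their direction in all 15 settings. The count was 2693 with only the 6 uninfested arrays and 340 to 881 with 1 array left out; the cause was not tested. With the replicate block it was 1122, and the samples share only a number. The share of probe sets higher in uninfested Molly whose mean log2 difference in infested sheaths lay above 0, called or not, was 34.6% (42.3% of all tested), against 29.5% (38.7% of all tested) with 60% of probe sets left out and 22.9% (33.3% of all tested) with arrays centred on their median, and 32.5% to 53.4% with 1 array left out. For those lower in uninfested Molly it was 57.3%, and 45.9% to 60.3% with 1 array left out; it was 46.8% without Molly replicate 3 and 45.9% without Newton replicate 2, and the higher set reached 53.4% without Newton replicate 2. Alternatives for this share were chosen after seeing the data. With brightness at 8 in place of 4 times the tag maximum, 1 probe set was bright in 1 line alone. Of 35 called probe sets looked at singly, 17 kept their call in every setting that tested them. Signal near or within the tag range limits GAPN, wci, WMAI-1, ATI, the dimmer RPS29 probe set and the gibberellin oxidases.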
